A study of Mus musculus with 8 samples.

Results

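The 10 genes described here handle arginine, nitric oxide and polyamines. They are Nos2, Gch1, Slc7a2, Ass1, Asl, Arg1, Arg2, Odc1, Srm and Sat1, taken by symbol from a deposited table of 23366 genes. All 10 had a row, and 9 passed the filter for testing, which asked for a level of 1 or more in at least 2 libraries and kept 11919 genes. Arg1 did not pass it.

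The RNA came from macrophages grown out of bone marrow of C57BL/6 mice, at passage 1, and was sequenced. Wild-type cells were compared with cells of the Lsd1SA/SA knock-in, in which the histone demethylase LSD1 carries a substitution that makes it phosphorylation-defective. Cells of all 4 groups were kept 24 h without serum. They then stayed untreated or received lipopolysaccharide (LPS, a bacterial outer membrane component) for 2 h, at a labelled dose of 1 mg/ml. Each group had 2 libraries, so n = 2 throughout. The labels give no age or sex of the mice, and do not say whether replicates were separate cultures or animals, and p-values therefore describe only the scatter among these libraries, which may be technical.

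Arginine is a substrate shared by competing enzymes in macrophages. Inducible nitric oxide synthase (Nos2) turns it into nitric oxide and citrulline, and needs tetrahydrobiopterin, whose synthesis starts with GTP cyclohydrolase 1 (Gch1). Arginases turn it into ornithine and urea, and ornithine decarboxylase (Odc1) opens the route from ornithine to the polyamines. In mouse macrophages Nos2 is a textbook gene of LPS and interferon activation, and Arg1 of activation by interleukin 4.

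Levels are in scaled CPM, the authors' read counts relative to a library size that was scaled in the way edgeR does. Library totals were 40379258 to 55595160 reads. Kdm1a, which encodes LSD1, had a level of 31.1 to 47.3, which does not test a substitution. Its means were 32.51 and 46.54 in wild type and 33.13 and 39.85 in the knock-in, untreated and with LPS. Both rises passed (limma adjusted p = 3.33e-07 and 0.00156), as did the lower level in the knock-in with LPS (0.00406). The difference in LPS effect passed too (limma adjusted p = 0.0225), but not the untreated difference between genotypes (0.883). The 2 libraries labelled knock-in LPS stood apart by sex-linked transcripts. Xist, made from the inactive X chromosome, was at 0.212 and 0.3665 there and at 315 to 437 in the other 6 libraries. Eif2s3y, on the Y chromosome, was at 35.0 and 33.9 there and had 0 reads in the other 6. Mice of different sex and the labelled condition therefore cannot be told apart in any comparison that uses these 2 libraries.

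Macrophage markers were high in every library, with a summed level of 12400 to 17800 over the 9 of 10 listed genes found by symbol (Lyz2, Cd68, Emr1 and Csf1r lead it). Of these 9, 5 rose and 2 fell with LPS in wild type, where the sum went from 13800 to 13900 up to 17400 to 17800. In the knock-in 1 rose and 5 fell, with a sum of 13700 to 14400 untreated and 12400 to 13000 with LPS. With LPS, 2 were higher and 7 lower in the knock-in than in wild type. For this and the lists below, 26.8% of all tested genes rose and 30.7% fell with LPS in wild type. In the knock-in 28.5% rose and 28.3% fell. Between genotypes with LPS, 38.5% were higher and 36.8% lower in the knock-in. Between untreated and LPS libraries of the knock-in, stromal markers rose in 8 of 9 tested genes, with a summed level of 27.8 to 33.8 in 6 libraries and 80.2 to 81.9 in the knock-in LPS libraries. Of the tested markers for mast cells and basophils 5 of 6 rose in the knock-in (not Kit), and 5 of 6 in wild type as well. Their sum was 33.8 to 35.0 untreated, 62.9 to 63.6 in wild type with LPS and 82.9 to 84.8 in knock-in with LPS. Mcpt4 and Tpsab1 had 0 reads. Neutrophil markers rose in 9 of 12 in each genotype (385 to 396 untreated, 800.0 to 816 in wild type with LPS, 531 to 539 in knock-in with LPS). In the knock-in, B and T cell markers fell in 3 of 4 (76.7 to 82.6 in 6 libraries, 46.8 to 50.4 in the knock-in LPS libraries). Erythroid and megakaryocyte markers fell in 2 of 3, and nearly all of their sum was Pf4. Dendritic cell markers fell in 5 of 7, while all 7 rose in wild type (335 to 360.0 untreated, 548 in wild type with LPS, 247 to 254 in knock-in with LPS). Most of that sum was Cd74, H2-Aa, H2-Ab1 and H2-Eb1, whereas Flt3, Zbtb46 and Siglech were at 1.153 or less in every library. The part of these cells in the results below was not tested. In bulk RNA, fewer cells of a type and less RNA per cell cannot be told apart.

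Nos2, Gch1 and Slc7a2, of the nitric oxide branch, rose with LPS in wild type. In the libraries labelled knock-in LPS, Nos2 and Gch1 rose less and Slc7a2 fell. All had their highest level in wild type with LPS. In the plot of levels, both points of that group stand above all other points for these 3 genes.

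**Figure D1:**
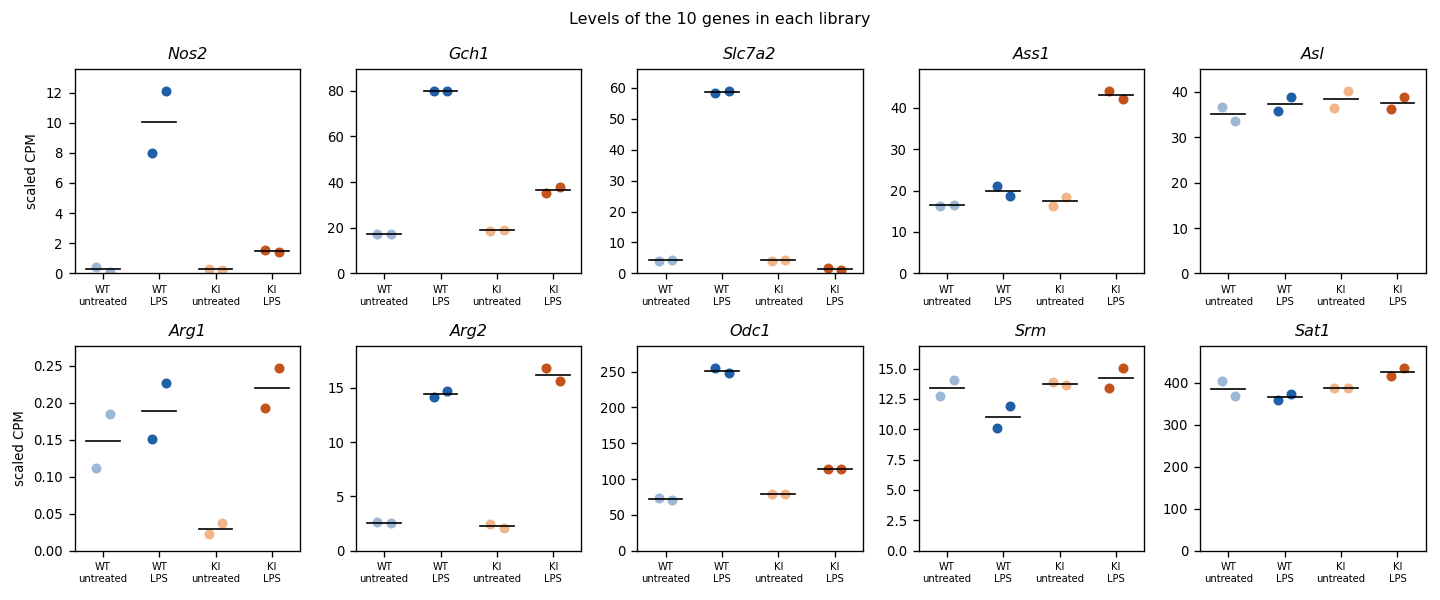
Level of each of the 10 genes in scaled CPM (linear axis from 0, a separate scale per gene) in the 8 libraries. Points are libraries and lines are group means (n = 2 per group). Slc7a2 is at 58.4 and 59.0 in wild type with LPS and at 4.49 or less elsewhere, whereas Ass1 is highest in the libraries labelled knock-in LPS.

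Nos2 stood at 0.446 and 0.0926 in untreated wild type, which is 24 and 4 reads, and at 8.02 and 12.1 with LPS. In the knock-in it stood at 0.322 and 0.258 untreated and at 1.54 and 1.39 in the LPS libraries. The untreated groups overlapped, and the LPS groups lay above them and apart from each other. The mean was 37.4 times higher with LPS in wild type (log2 change 3.11, SE 0.169, limma adjusted p = 4.94e-14) and 5.06 times higher in the knock-in (0.94, SE 0.169, limma adjusted p = 5.19e-05). The wild-type ratio rests on few untreated reads, and was 109 without untreated replicate 1 and 22.6 without untreated replicate 2. Log2 changes here are on the log2(level + 1) scale, which understates changes of low genes. On whole reads edgeR gave 5.16 and 2.33 for these 2 changes, and a pseudocount of 5 gave 1.503 and 0.29.

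Slc7a2 encodes CAT2, a transporter that brings cationic amino acids such as arginine into the cell. Its levels were 4.01 and 4.44 in untreated wild type, 58.4 and 59.0 in wild type with LPS, 4.09 and 4.49 in untreated knock-in, and 1.91 and 1.13 in knock-in with LPS. The order was thus wild type with LPS, then the 2 untreated groups, which overlapped, then knock-in with LPS. LPS came with a 13.9-fold higher mean in wild type (log2 change 3.52, SE 0.124, limma adjusted p = 7.37e-18). The same contrast went the other way in the knock-in, where the log2 change was -1.09 (SE 0.124, limma adjusted p = 7.59e-08). That decrease was -0.51 with a pseudocount of 5. The difference between the 2 LPS effects was -4.60 (SE 0.175, limma adjusted p = 6.39e-17), the widest of the 9 tested members.

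Gch1 was at 17.3 and 17.2 in untreated wild type and at 80.0 and 80.1 with LPS. In the knock-in it was at 18.7 and 19.2 untreated and at 35.3 and 37.7 with LPS. No 2 groups overlapped. The mean was 4.63 times higher with LPS in wild type (log2 change 2.15, SE 0.0662, limma adjusted p = 4.59e-19) and 1.93 times higher in the knock-in (0.91, SE 0.0662, limma adjusted p = 2.67e-11).

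Ass1 and Asl encode argininosuccinate synthase and lyase, which together rebuild arginine from citrulline. Ass1 was at 16.2 and 16.6 in untreated wild type and 21.1 and 18.7 with LPS, against 16.3 and 18.5 in untreated knock-in and 44.1 and 42.0 in knock-in with LPS. Both knock-in LPS libraries lay above all others. The LPS effect was 0.26 in wild type (SE 0.0811, limma adjusted p = 0.00756) and 1.26 in the knock-in (SE 0.0811, limma adjusted p = 2.68e-12). The rise in wild type was lost when the first LPS replicate of that genotype was left out (0.18, limma adjusted p = 0.122, in a range over alternatives of 0.003 to 0.122).

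Asl passed in none of the 5 comparisons. It lay between 33.5 and 40.2 in the 8 libraries and every pair of groups next to each other in level overlapped. Its LPS effect had a 95% interval of -0.062 to 0.233 in wild type and of -0.173 to 0.122 in the knock-in.

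Arg1, the cytosolic arginase, was barely read. It had 1 to 14 reads in a library, that is 0.0230 to 0.247. With 3 reads over both untreated knock-in libraries and 24 over the LPS libraries, the ratio was 7.20 (95% counting interval 2.19 to 37.4). Against the 14 reads of untreated wild type, the 3 reads gave a ratio of 0.213 (0.0392 to 0.763). In wild type, 16 reads with LPS against 14 gave 1.32 (0.604 to 2.92). These intervals cover counting error only, and 71.1% of all counts from 1 to 20 in the table were even, a pattern that counting by pairs would give, in which case the intervals are too narrow. With no filter, limma gave Arg1 a log2 change of 0.244 with LPS in the knock-in (adjusted p = 0.00596), at levels near those of a few reads.

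Among other genes of interleukin 4 activation, Mrc1, the mannose receptor, was at 691 to 879 in 6 libraries and at 349.6 and 334 in the libraries labelled knock-in LPS. Tgm2, a transglutaminase, was at 158 to 178 without LPS, at 632 and 633 in wild type with LPS, and at 512.5 and 519.9 in knock-in with LPS. Il4ra, an interleukin 4 receptor gene, was at 132.4 to 151.1 without LPS. It was at 220.1 and 232.4 in wild type with LPS, and at 280.7 and 263.4 in knock-in with LPS. Retnla, an alternative activation marker, had 0 reads in all 8 libraries. Of the 11 tested genes of this list, 7 rose and 0 fell with LPS in wild type, and 4 rose and 6 fell in the knock-in. Of all tested genes, 26.8% rose and 30.7% fell in the first comparison, and 28.5% and 28.3% in the second. Between genotypes with LPS, 1 of the 11 was higher and 10 were lower in the knock-in, beside 38.5% and 36.8% of all tested genes.

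Arg2, the mitochondrial arginase, rose with LPS in both genotypes. It stood at 2.64 and 2.52 in untreated wild type, 14.2 and 14.7 in wild type with LPS, 2.41 and 2.05 in untreated knock-in, and 16.8 and 15.6 in knock-in with LPS. Its highest group was knock-in with LPS, next to wild type with LPS and with no overlap between them. The mean was 5.60 times higher with LPS in wild type (log2 change 2.11, SE 0.108, limma adjusted p = 1.63e-14) and 7.27 times higher in the knock-in (2.42, SE 0.108, limma adjusted p = 2.61e-15). With a pseudocount of 5 these changes were 1.36 and 1.55. The difference between the 2 effects did not pass (0.31, 95% interval -0.0101 to 0.623, limma adjusted p = 0.0843). Arg2 overlaps Vti1b on the opposite strand in the GENCODE vM21 annotation, and the strand of counting is not given in the sources used here. Vti1b itself was at 83.8 to 93.4 in 6 libraries against 106.2 and 109.9 in the libraries labelled knock-in LPS, and its LPS effect in wild type did not pass (limma adjusted p = 0.98).

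Among the polyamine genes, Odc1 rose with LPS in both genotypes and more in wild type. It was at 73.9 and 70.8 in untreated wild type, 255 and 248 in wild type with LPS, 79.6 and 79.6 in untreated knock-in, and 114 and 114 in knock-in with LPS. All 4 groups were apart from each other. The mean was 3.48 times higher with LPS in wild type (log2 change 1.78, SE 0.049, limma adjusted p = 4.31e-20) and 1.43 times higher in the knock-in (0.51, SE 0.049, limma adjusted p = 3.77e-09).

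Srm, which makes spermidine from putrescine, was at 12.8 and 14.1 in untreated wild type, 10.1 and 11.9 with LPS, 13.9 and 13.7 in untreated knock-in, and 13.4 and 15.1 in knock-in with LPS. Only the wild-type LPS libraries lay apart from the rest, on the low side. It fell by 0.26 with LPS in wild type (SE 0.0965, limma adjusted p = 0.0224) and did not pass in the knock-in (0.041, limma adjusted p = 0.741). The wild-type call was lost in 5 alternatives, with a limma adjusted p of 0.16 when untreated wild-type replicate 2 was left out and 0.26 when LPS wild-type replicate 1 was, in a range over alternatives of 0.00917 to 0.26.

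Sat1, which acetylates spermidine and spermine for export or breakdown, lies on the X chromosome. Levels were 403 and 368 in untreated wild type, 359 and 374 with LPS, 386 and 388 in untreated knock-in, and 415 and 435 in knock-in with LPS. The knock-in LPS libraries, which also differ in Xist, were the highest, and the other 3 groups overlapped their neighbours in level. LPS came with a log2 change of 0.14 in the knock-in (SE 0.0487, limma adjusted p = 0.0214) and of -0.071 in wild type, which did not pass (limma adjusted p = 0.222). The knock-in call was lost with no filter (limma adjusted p = 0.0662), without either untreated replicate (limma adjusted p = 0.0874 and 0.0715) and without replicate 2 of knock-in with LPS (0.19), in a range over alternatives of 0.00639 to 0.19. The wild-type change passed without untreated replicate 2 (-0.14, limma adjusted p = 0.0258) and after quantile normalization (-0.51, limma adjusted p = 2.6e-08).

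In counts, 6 of the 9 tested members rose with LPS in wild type (Slc7a2, Nos2, Gch1, Arg2, Odc1 and Ass1) and Srm fell, where 57.6% of all tested genes were called, 26.8% higher and 30.7% lower. Higher calls were 46.6% of all calls there, and 35.4% after quantile normalization. The median log2 change was 1.78 over the members and -0.0316 over all tested genes. In the libraries labelled knock-in LPS, 6 rose (Arg2, Ass1, Nos2, Gch1, Odc1 and Sat1) and Slc7a2 fell, where 56.7% of all tested genes were called, 28.5% higher and 28.3% lower. The medians were 0.51 and 0.016. The members were chosen with earlier results of these data known, so these counts and medians only describe them.

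**Figure D2:**
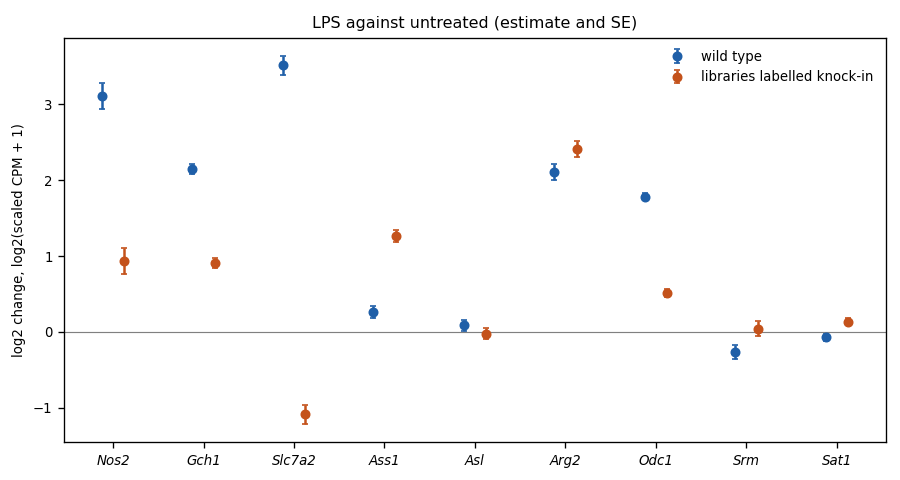
Log2 change with LPS on the log2(scaled CPM + 1) scale for the 9 tested members, in wild type and in the libraries labelled knock-in (points are limma estimates from 2 libraries per group, bars are 1 SE). From wild type to knock-in, Slc7a2 lies at 3.52 and -1.09, Ass1 at 0.26 and 1.26, and Arg2 at 2.11 and 2.42.

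Without LPS, no tested member passed between knock-in and wild type. That was 0 of 9 with limma, 0 with edgeR and 0 with DESeq2, while 1 (Odc1) had an unadjusted p under 0.05. Of all tested genes 0.00839% were called, which is 1 gene. That count was 64 with DESeq2 and 481, 5 and 2 without untreated wild-type replicate 1, untreated wild-type replicate 2 and untreated knock-in replicate 1, and the members called were 0 in each of these. Log2 differences ran from -0.15 for Arg2 to 0.14 for Odc1 (limma adjusted p = 0.241). The 95% interval of Nos2 was the widest, at -0.311 to 0.386, and that of Slc7a2 was -0.239 to 0.273.

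With LPS, 4 members were lower in the libraries labelled knock-in (Slc7a2, Nos2, Odc1 and Gch1) and 3 were higher (Ass1, Srm and Sat1). Of all tested genes 75.4% were called in this comparison, 36.8% lower and 38.5% higher. The mean of Slc7a2 was 38.7 times higher in wild type than in the knock-in with LPS (log2 difference -4.59, SE 0.124, limma adjusted p = 2.71e-20). That of Nos2 was 6.86 times higher in wild type (-2.14, SE 0.169, limma adjusted p = 4.57e-11). Odc1 was 2.20 times higher (-1.13, SE 0.049, limma adjusted p = 3.99e-16) and Gch1 2.19 times higher (-1.11, SE 0.0662, limma adjusted p = 2.25e-13). In the other direction, Ass1 was 2.16 times higher in the knock-in libraries (1.08, SE 0.0811, limma adjusted p = 2.05e-11), Srm 1.29 times (0.34, limma adjusted p = 0.00294) and Sat1 1.16 times (0.21, limma adjusted p = 4.06e-04). Arg2 and Asl did not pass, with 95% intervals of -0.0675 to 0.380 and -0.135 to 0.160. The Srm call was lost when LPS wild-type replicate 1 was left out (limma adjusted p = 0.0715) and when LPS knock-in replicate 2 was (0.0624), in a range over alternatives of 0.00154 to 0.0715, and the Sat1 difference was 0.65 after quantile normalization.

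**Figure D3:**
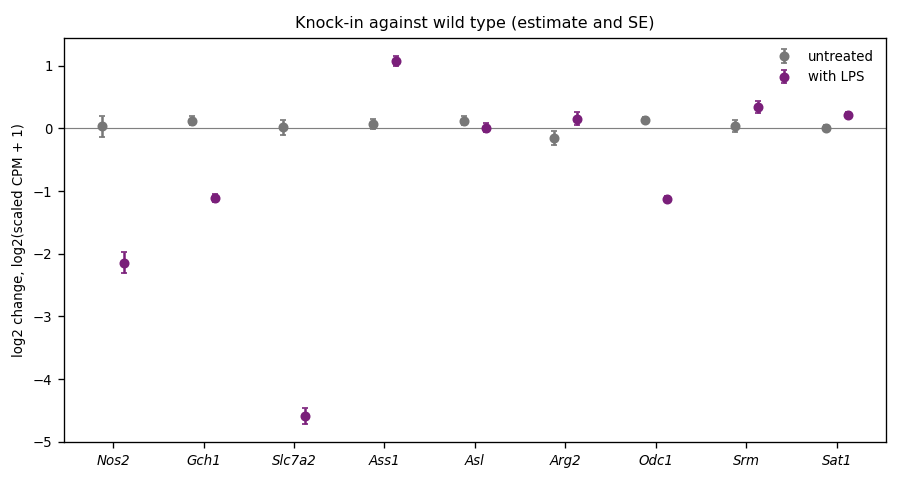
Log2 difference between knock-in and wild type on the log2(scaled CPM + 1) scale for the 9 tested members, untreated and with LPS (points are limma estimates from 2 libraries per group, bars are 1 SE). The untreated differences lie between -0.15 and 0.14, and those with LPS between -4.59 and 1.08.

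The LPS effect itself differed between genotypes in 6 of the 9 tested members. It was smaller or opposite in the knock-in for Slc7a2, Nos2 (-2.18, limma adjusted p = 2.86e-08), Odc1 (-1.27, limma adjusted p = 8.56e-14) and Gch1 (-1.24, limma adjusted p = 4.33e-11). It was larger for Ass1 (0.998, limma adjusted p = 6.36e-08) and Sat1 (0.21, limma adjusted p = 0.0119). Of all tested genes 63.7% were called here, 31.8% in each direction. Srm did not pass (0.30, limma adjusted p = 0.0553), nor did Arg2 or Asl. The Srm difference passed with robust variances (limma adjusted p = 0.0461) and when untreated wild-type replicate 1 (0.0339), LPS wild-type replicate 2 (0.0191) or LPS knock-in replicate 1 (0.0396) was left out. Sat1 lost its call when untreated wild-type replicate 1, LPS wild-type replicate 1 or LPS knock-in replicate 2 was left out (limma adjusted p = 0.063, 0.0611 and 0.0711, in a range over alternatives of 8.34e-08 to 0.0711).

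Promoter sequences at hand covered 4 members (Gch1, Odc1, Ass1 and Sat1), from RefSeq on GRCm38.p6. Gch1, Odc1 and Ass1 are shown because Gch1 and Odc1 rose less in the knock-in with LPS and Ass1 more. Sat1, whose LPS effect was also larger in the knock-in (0.21), is not shown. Each run is read 5′ to 3′ on the strand of the gene and ends at the base before the most upstream annotated gene start. It covers chr14:47189414-47189663 on the minus strand for Gch1, chr12:17544623-17544793 on the plus strand for Odc1 and chr2:31470020-31470206 on the plus strand for Ass1. Capitals mark matches, on both strands, to the NF-kB consensus (the run of 10 letters) and to the GC box GGGCGG (runs of 6).
Gch1: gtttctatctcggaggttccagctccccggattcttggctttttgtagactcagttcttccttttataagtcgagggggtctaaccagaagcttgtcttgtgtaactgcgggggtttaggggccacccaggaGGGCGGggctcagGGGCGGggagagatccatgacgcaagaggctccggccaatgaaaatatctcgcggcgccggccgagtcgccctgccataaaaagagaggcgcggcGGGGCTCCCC
Odc1: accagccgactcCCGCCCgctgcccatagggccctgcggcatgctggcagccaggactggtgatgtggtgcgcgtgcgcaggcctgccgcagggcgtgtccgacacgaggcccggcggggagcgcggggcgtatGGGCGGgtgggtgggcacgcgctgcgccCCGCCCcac
Ass1: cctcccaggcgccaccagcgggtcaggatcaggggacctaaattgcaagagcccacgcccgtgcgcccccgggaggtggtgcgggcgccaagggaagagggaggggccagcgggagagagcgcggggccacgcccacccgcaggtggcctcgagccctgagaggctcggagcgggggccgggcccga
The NF-kB consensus matched at the last 10 bases of the Gch1 run (GGGGCTCCCC, from base 241) and nowhere in the other 2. Of 32851 RefSeq windows of the same length, 3.90% held a match. The GC box matched 2 times in Gch1 and 3 times in Odc1, and is in 32.7% and 19.6% of windows of those lengths. It had 0 matches in Ass1 but 2 in the 250 bases of Sat1, so it does not divide the genes by direction. AP-1 sites (TGANTCA), the E-box CACGTG and the interferon response core GAAANNGAAA were not in these 3 runs. They are in 4.70% to 6.75%, 3.41% to 6.02% and 2.12% to 2.98% of windows of these lengths. A match is a description of letters and does not show binding.

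Some genes had profiles over the 8 libraries close to those of the members. Closeness was the Euclidean distance between log2(level + 1) profiles, each centred on its own mean, over 9643 genes with a highest group mean of at least 5. Nearest to Nos2 were Rnf19b (0.462), Arl5c (0.478) and Slfn2 (0.521). Nearest to Odc1 were Il15 (0.141), a cytokine gene, Chka (0.187), a choline kinase gene, and Prr5l (0.213). Nearest to Gch1 were Msantd3 (0.287), Arrdc4 (0.327) and Gbp7 (0.329). Chosen after their values were seen, the nearest to Slc7a2 were Gpr85 (0.386) and Cd14 (0.407), the LPS co-receptor gene, whose means were 130.0 and 1380 in wild type and 133 and 66.2 in the knock-in, untreated and with LPS. In the same way, the nearest to Arg2 was Ifit2 (0.255), an interferon-induced gene, with means of 60.5 and 286 in wild type and 53.6 and 272 in the knock-in.

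The other genes of the pathway came from a list of 50 genes, of which 37 passed the filter. With LPS in wild type 12 rose and 8 fell, by a median of -0.0599 over the 37. That is near the share over all tested genes (57.6% called, median -0.0316), so the count is not a result about the pathway. Slc7a1, which encodes the arginine transporter CAT1, went from 32.5 and 31.5 to 65.3 and 68.1 (log2 change 1.04, limma adjusted p = 2.48e-13). Spermine oxidase, Smox, went from 33.3 and 34.1 to 65.6 and 65.4 (0.94, limma adjusted p = 2.04e-12). Atp13a3 (0.57), a polyamine transporter gene, and Slc7a7 (0.42), a light chain of arginine exchangers, also rose, and Atp13a2 (-0.42), a lysosomal polyamine exporter gene, fell. Slc3a2 (0.43), the heavy chain of amino acid exchangers, Azin1 (0.42), the antizyme inhibitor, and Mat2a (0.39), which makes S-adenosylmethionine, rose as deposited, but after quantile normalization were at -0.058, -0.048 and 0.11 and did not pass.

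In the knock-in 7 of the 37 rose and 16 fell with LPS, by a median of -0.0739, beside 28.5% and 28.3% of all tested genes and a median of 0.016. All 4 tested arginine transport genes rose, though Slc7a6 (0.26, limma adjusted p = 0.0371) did not pass with no filter (0.129), by edgeR (0.0501), by DESeq2 (0.0631), or without untreated replicate 1 (0.585), LPS replicate 1 (0.135) or LPS replicate 2 (0.113). The lead was taken by Slc3a2, which went from 607 and 616 to 1260 and 1223 (1.02, limma adjusted p = 4.05e-15). Paox, an oxidase of acetylated polyamines, went from 35.3 and 35.2 to 56.1 and 58.1 (0.68, limma adjusted p = 5.51e-09). All 3 tested genes of antizymes, which bind ornithine decarboxylase, and of their inhibitor (Oaz1, Oaz2 and Azin1) fell. In wild type all 3 rose as deposited, but after quantile normalization Oaz1 fell (-0.20, limma adjusted p = 0.00358), and Azin1 (-0.048) and Oaz2 (0.12) did not pass. Oaz2 also lost its rise with no filter (limma adjusted p = 0.101), with only the groups compared (0.0567), and without untreated wild-type replicate 2 (0.368), LPS wild-type replicate 2 (0.338) or either LPS knock-in replicate (0.052 and 0.0523). The fall of Azin1 in the knock-in (-0.14) was lost without untreated replicate 1 (0.253) and without LPS replicate 1 (0.0525) or 2 (0.125). Oaz1 went from 244.7 and 262.5 to 160.4 and 171 (-0.61, limma adjusted p = 1.22e-09).

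Among the others lower in the knock-in with LPS than untreated, Oat, the ornithine aminotransferase gene, went from 76.2 and 78.9 to 44.7 and 42.3 (-0.82, limma adjusted p = 1.39e-11). Atp13a3 went from 59.7 and 55.3 to 25.7 and 25.4 (-1.14, limma adjusted p = 2.27e-13). Prodh (-0.64), of proline breakdown, and Eif5a2 (-0.63), a carrier of the spermidine-derived residue hypusine, fell too. The naming rule took only genes whose groups do not overlap, so agreement between libraries of a group adds nothing here. The heat map shows the library values.

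**Figure D4:**
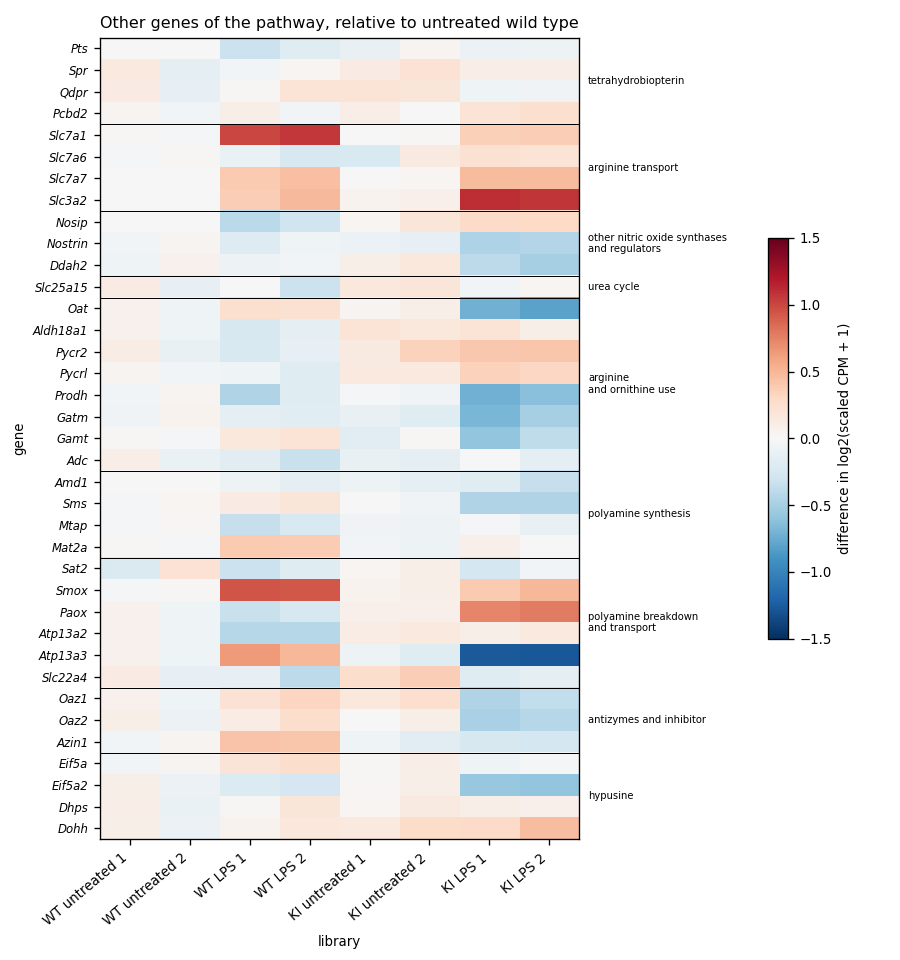
Difference of each library from the mean of untreated wild type, in log2(scaled CPM + 1), for the 37 tested other genes of the pathway (rows, grouped by role) in the 8 libraries (columns). The colour scale ends at -1.5 and 1.5. Slc3a2 and Paox are highest in the 2 libraries labelled KI LPS, and Atp13a3 and Oat are lowest there.

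Between untreated genotypes, 0 of these 37 genes passed limma, 0 passed edgeR or DESeq2, and 8 had an unadjusted p under 0.05. With LPS, 10 were higher and 18 lower in the knock-in than in wild type, by a median of -0.0183, where 75.4% of all tested genes were called (38.5% higher, 36.8% lower, median 0.023). The share called is near that of all genes. Atp13a3 was 3.67 times higher in wild type (log2 difference -1.84, limma adjusted p = 5.54e-18), Oat 2.01 times (-0.99, limma adjusted p = 1.33e-13) and Slc7a1 1.61 times (-0.67, limma adjusted p = 5.32e-10). Paox was 2.10 times higher in the knock-in (1.04, limma adjusted p = 7.71e-13). The LPS effect passed as different between genotypes in part of the 37, larger or more positive in the knock-in for 8 and smaller or more negative for 15, by a median of -0.0968. Over all tested genes the share was 63.7%, near that of the list, with 31.8% in each direction and a median of 0.0133. The knock-in LPS libraries also differ in the sex-linked transcripts and in the summed stromal and joint mast cell and basophil markers given above.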

How the data were processed

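The authors deposited 1 table of 23366 genes by 8 libraries. The tools, per the submitters' processing notes, were bedtools, edgeR and TopHat2 2.0.9, and the genome build was mm9, with the counting rule, strand and annotation not given in the sources used here. The deposited values are a signal, read counts divided by a scaled library size. This was worked out from the values, of which 100% were whole multiples of a library's 1-read step within 0.001. Members were matched by symbol. The members and lists were chosen with earlier results of these data known.

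Levels were tested as log2(value + 1) with limma 3.58.1 in R 4.3.3 (eBayes with trend, 2-sided, 4 group means over 8 libraries, 4 residual and 19.1 prior degrees of freedom). A gene was tested where 2 or more libraries had a value of at least 1, and adjusted p is Benjamini-Hochberg over all 11919, called under 0.05. Named genes were the members, Kdm1a, up to 8 called genes per comparison from the pathway list with the largest changes and groups that do not overlap, up to 4 of each marker list, and the nearest profiles. Vti1b, named for its overlap, and Oaz2 in the antizyme count were added after their values were seen. Amd2, whose row equals that of Amd1, was left out, and 1 further gene of the pathway list is not reported here. The script was tested on simulated data. Alternatives were other pseudocounts, filters and scalings, robust variances, a replicate block, edgeR 4.0.16, DESeq2 1.42.0 and fewer libraries.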

Additional observations from a re-analysis of the deposited data

Results flagged for a closer look

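The LPS effect differed between genotypes, by the limma test of the difference, in 6 members and in 8 further genes that the naming rule took from the pathway list. The rule takes at most 8 genes. Of the 37 tested genes of that list, 8 passed as larger or more positive in the knock-in and 15 as smaller or more negative. Of all tested genes 63.7% were called for this difference, so the counts are not a result about these genes. Values are knock-in log2 effects minus wild-type ones. They were -4.60 for Slc7a2, -2.18 for Nos2, -1.27 for Odc1, -1.24 for Gch1, 0.998 for Ass1 and 0.21 for Sat1. Among the other genes they were -1.71 for Atp13a3, -1.06 for Oat, 0.97 for Paox, -0.88 for Oaz1, -0.69 for Oaz2, -0.68 for Slc7a1, 0.59 for Slc3a2 and -0.59 for Gamt. Each of these differences uses the libraries labelled knock-in LPS, which also differ in sex-linked transcripts from the rest, untreated knock-in included. An LPS effect particular to the knock-in and a change of sex within the knock-in therefore cannot be told apart in them. No group has the 4 libraries needed to look for outlying samples.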

How the results depend on the processing

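Each result was recomputed under up to 19 alternatives, and those of wild type with LPS and of the untreated genotypes also without the knock-in LPS libraries, an alternative added after seeing the data, which gave 6718 called genes and 7 called members for LPS in wild type, and 1 and 0 between untreated genotypes. The number of members called stayed within 5 to 7 of 9 in the 4 comparisons with calls and at 0 between untreated genotypes. Nos2, Slc7a2, Odc1, Gch1 and Arg2 kept the direction and call of both LPS effects in every alternative run. Replicate numbers were not shown to pair samples (correlations of same-numbered deviations were -0.0837 to 0.0891). With the replicate block limma called 6857 genes for LPS in wild type, 6736 in the knock-in, 1 between untreated genotypes, 8962 with LPS and 7582 for the difference in LPS effect, and Srm passed for that difference (0.30, adjusted p = 0.0452). On whole reads edgeR called 6842, 6779, 1, 8957 and 7558 genes.

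Between untreated genotypes the count of called genes was 1, and moved to 2 with a pseudocount of 5, 0 with no filter, 18 with robust variances and 64 with DESeq2. Leaving out a library gave 1 to 481, with 481 without untreated wild-type replicate 1, 5 without replicate 2 of that group and 2 without untreated knock-in replicate 1. After quantile normalization Slc3a2 (-0.058) and Azin1 (-0.048), which had risen with LPS in wild type, were below 0 and did not pass, and Oaz1 fell (-0.20). The other reversed directions among members and genes named by the rule were of changes that had not passed. Asl between genotypes with LPS was -0.016 with median-of-ratios scaling, -0.030 by edgeR, -0.015 by DESeq2, and -0.047 to 0.072 when a library was left out. Sat1 between untreated genotypes was -0.024 after quantile normalization. Leaving out a library gave, with LPS in the knock-in, -0.096 to 0.045 for Asl and -0.039 to 0.12 for Srm, and, between untreated genotypes, -0.16 to 0.24 for Nos2, -0.010 to 0.16 for Ass1, -0.043 to 0.077 for Slc7a2, -0.032 to 0.10 for Srm and -0.058 to 0.072 for Sat1. The cause of these shifts was not tested. Depth limits Arg1, at most 14 reads in a library, and Nos2 in untreated cells, at 4 to 24 reads.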
